A study of Mus musculus with 11 samples.

Results

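Conventional dendritic cells of type 2 and migratory dendritic cells were examined in mouse kidneys 28 days after injury. They were selected on their measured UMIs, as barcodes with at least 500 unique molecular identifiers (UMIs, which count molecules), at least 200 genes and at most 30% mitochondrial UMIs that held at least 2 of the 5 genes *Cd209a*, *Mgl2*, *Flt3*, *Ccr7* and *Itgax* together with *Cd74*. Barcodes with 2 or more of the macrophage genes *C1qa*, *C1qb* and *C1qc*, with 2 or more of the cDC1 genes *Xcr1*, *Clec9a*, *Wdfy4* and *Naaa*, or with any *Cd3e*, *Cd3d*, *Cd79b* or *Epcam* were barred. The rule left 343 members of 45454 barcodes that passed the quality limits (0.755%). The 11 libraries of single-cell RNA-seq came from male C57Bl/6 mice. Those of the injury models were 10 weeks old at the operation and were taken 28 days later, and the methods give the naive controls as of the same age. There were 5 control libraries of naive kidneys (Ctrl, N1, N2, AN1 and AN2, replicates 1 to 5), 3 of unilateral ischemia/reperfusion (UIR) and 3 of unilateral ureteral obstruction (UUO). In UIR the vessels of the left kidney had been clamped for a time, and in UUO the left ureter had been tied off for good; 1 library of each model carries no number. Controls were not operated on. By the prefixes of their names (Ctrl, N and AN) the controls fall into 3 sets, taken here as batches. The methods do not say what these prefixes stand for. No batch is given for the injured libraries, so that batch and injury cannot be told apart. The number of libraries per group matches the number of mice that the methods give, although no label ties a library to a mouse.

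Dendritic cells take up antigen in tissue and present it to T cells. cDC2 form the subset that is known mainly for presentation to CD4 T cells on MHC class II, and carry lectins such as Clec10a, Cd209a and Mgl2. When they mature, dendritic cells gain the chemokine receptor Ccr7, which takes them to the draining lymph node, and the actin-bundling protein Fscn1. They lose much of their uptake machinery at the same time.

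Library totals ran from 49503312 UMIs in the unnumbered UUO library to 117043590 in UIR replicate 1. The members held a median of 8045 UMIs each (509 to 35228), with 7301 in controls, 7695 in UIR and 8874.5 in UUO. By library the median of C1q-positive macrophages lay between 905 and 3652 UMIs, below that of the members. No member barcode was shared between libraries, and the 55 pairs of libraries shared 270 quality barcodes in sum, at most 0.335% of the smaller library. Scrublet's highest-scoring 7.5% of barcodes held 20 of the 343 members.

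The members carried the markers on which they were chosen in varied sets, which describes the choice and is no finding. *Itgax*, an integrin of dendritic cells and macrophages, was detected in 225 members, *Cd209a* in 217, *Mgl2* in 214, *Flt3*, the receptor for the growth factor of dendritic cells, in 161 and *Ccr7* in 62. *Cd209a* with *Mgl2* alone was the most frequent set (53 members), followed by these 2 with *Itgax* (50) and by *Mgl2* with *Itgax* alone (49). Exactly 2 of the 5 markers were found in 190 members, 3 in 113 and 4 in 40. Just outside the threshold, 13 control, 229 UIR and 333 UUO barcodes that met the other terms held 1 marker.

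Genes that the rule did not use gave a mixed picture of the label. *Clec10a*, the lectin by which the study named cDC2, was detected in 43.7% of members, against 8.89% of C1q macrophages and 0.234% of proximal tubule (PT) barcodes, which should lack it. *Zbtb46*, a transcription factor of conventional dendritic cells, was found in 28% of members and 1.88% of macrophages, and *Irf4*, a regulator of cDC2, in 26.2% and 1.83%. *Sirpa* and *Itgam*, surface proteins that cDC2 share with macrophages, were found in 52.8% and 42.0% of members, and in 31.2% and 19.7% of macrophages. The macrophages were far shallower, as given above, so that these shares do not compare levels. *Kap*, an abundant PT transcript, was detected in 15 of 16 members in controls, 128 of 157 in UIR and 33 of 170 in UUO. The summed level of 16 PT genes in member pools was 29601 CPM in Ctrl, 788 in N1, 715 in AN1 and 5400 in AN2. Of the macrophage and other cell type markers, the summed level of 20 macrophage genes lay between 813 and 4659 counts scaled to 1000000 UMIs of the pool (CPM) in the member pools of controls and between 1636 and 1862 in those of injured kidneys. In C1q macrophages the same sum was 11431 to 36192 CPM. *Siglech*, which marks plasmacytoid dendritic cells, was detected in 18 members, 4 of 16 in controls, 4 of 157 in UIR and 10 of 170 in UUO. *Xcr1* or *Clec9a* was found in 17 members, 7 of them mature in the sense given below. The rule limited this count, since barcodes with 2 or more of 4 cDC1 genes were barred. A single one of these 4 genes, which the rule allowed, was held by 216 members, 11 in controls, 101 in UIR and 104 in UUO. *Lyz2*, lysozyme of monocytes and macrophages, was detected in 238 of the 343 members, and a single C1q gene, which the rule allowed, in 95. The summed level of 16 monocyte genes ran from 1675 to 4010 CPM in control member pools, from 1598 to 6378 CPM in those of UIR and from 2122 to 4698 CPM in those of UUO, against 2141 to 7223 CPM in C1q macrophages of controls, which overlapped the members, and 11233 to 12974 CPM in those of injured kidneys. *Clec10a* was detected in 140 of the 268 members that were not mature in the sense given below, and in 10 of the 75 mature members. Of the mature members 50 had none of *Cd209a*, *Mgl2* and *Clec10a* detected, and type 2 cannot be read from their own transcripts. The first 2 of these belong to the rule, under which a member without *Ccr7* had to carry one of them or both *Flt3* and *Itgax*.

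Members were a larger share of all quality barcodes in injured kidneys. They made up 0.0851% in Ctrl (3 cells), 0.299% in N1 (6), 0% in N2 (0 of 2128, which allows a share of up to 0.141%), 0.0944% in AN1 (2) and 0.234% in AN2 (5). In UIR the share was 0.698% in the unnumbered library (31 cells), 1.04% in replicate 1 (84) and 0.703% in replicate 2 (42). In UUO it was 1.62% in the unnumbered library (80 cells), 0.949% in replicate 1 (56) and 0.805% in replicate 2 (34). Every injured library thus lay above every control. The mean was 0.142% ± 0.121 in controls (SD, n = 5), 0.814% ± 0.196 in UIR (n = 3) and 1.13% ± 0.437 in UUO (n = 3). Two-sided exact permutation tests over libraries gave p = 0.0357 for each model against controls, the smallest p that 5 against 3 libraries allow. After adjustment over 3 comparisons it was 0.0536, also the smallest that these tests allow, so that 0.05 could not be reached. UUO and UIR overlapped (exact permutation p = 0.3). They did not overlap with barcodes thinned to 1000 UMIs (means of 1.48% in UUO and 1.06% in UIR), with a mitochondrial limit of 50% (1.10% and 0.614%) or with *Naaa* and *Wdfy4* not barred (2.41% and 1.63%). Each of these gave an exact permutation p = 0.1, the smallest that 3 against 3 libraries allow, so that 0.05 cannot be reached.

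**Figure D1:**
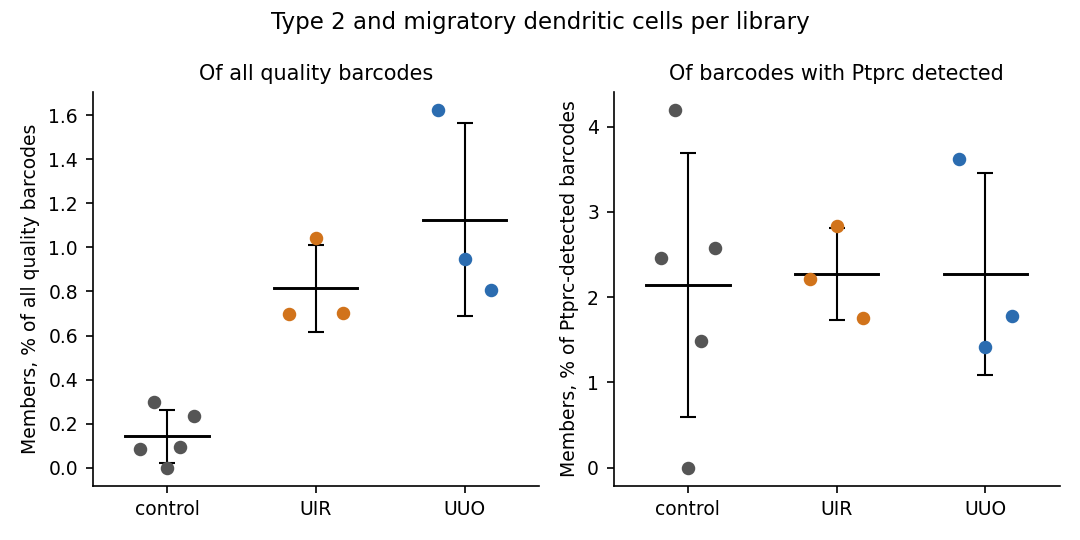
Share of type 2 and migratory dendritic cells in each library, as a percentage of all quality barcodes (left) and of barcodes with *Ptprc* detected (right); points are libraries, long lines means and bars 1 SD (n = 5, 3 and 3). All 6 injured libraries lie above the 5 controls on the left, while on the right the 3 groups share the range from 1.75% to 2.84% held by UIR.

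The difference varied with the set of barcodes in which it was counted. The sets with *Ptprc*, with under 2 PT genes and with a lower mitochondrial limit also dropped members. Of the 343 members 68 had no *Ptprc* detected (1 in controls, 28 in UIR and 39 in UUO), and 36 held at least 2 of 5 PT genes (6 of the 16 in controls, 30 in UIR and 0 in UUO). Among barcodes with under 2 PT genes, the mean share was 0.275% ± 0.324 in controls, 0.873% ± 0.259 in UIR and 1.15% ± 0.434 in UUO, ratios of 3.17 and 4.19. UUO did not overlap controls there (exact permutation p = 0.0357, the smallest possible, adjusted 0.107), and UIR overlapped N1 at 0.821% (p = 0.107 by the same exact test). Among barcodes with *Ptprc*, the pan-leukocyte gene CD45, the controls ranged from 0% to 4.20%, UIR from 1.75% to 2.84% and UUO from 1.41% to 3.62%, and the means were 2.14%, 2.27% and 2.27%. The exact permutation test gave p = 0.857 for UIR and 0.929 for UUO against controls. Per 100 C1q macrophages there were 4.91 ± 3.32 members in controls, 4.56 ± 1.06 in UIR and 4.32 ± 2.35 in UUO, a difference of opposite sign (exact permutation p = 0.857 and 0.75). Macrophage barcodes were shallower in injured than in control libraries, and the part of depth in this ratio was not tested. As cDC1 were taken quality barcodes with *Cd74* and at least 2 of the 4 cDC1 genes, under the same bars on C1q and other genes. They include the barcodes that *Naaa* and *Wdfy4* alone barred from the members (10 in controls, 122 in UIR and 157 in UUO), whose type is uncertain. Of members and cDC1 together, members were 38.2% ± 30.3 in controls (0% to 75%), 27.0% ± 5.28 in UIR and 29.2% ± 6.01 in UUO. Against controls the exact permutation test gave p = 0.571 and 0.607 for these. PT barcodes numbered between 1258 and 2539 per control library, 837 to 1914 in UIR and 69 to 160 in UUO. With a mitochondrial limit of 15% in place of 30%, the highest control reached 0.951% and overlapped both models (exact permutation p = 0.143 and 0.0714).

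A mature state set 75 members apart from the other 268. A member was called mature with at least 2 of *Ccr7*, *Fscn1*, *Ccl22*, *Cacnb3* and *Il4i1* detected. *Ccr7* belongs to the selection rule, and 59 of the 75 mature members carried it, so that the split and its share are given as a description with no test. The number of these markers per cell lay mostly at the ends, with 224 members at 0, 44 at 1, 17 at 2, 13 at 3, 15 at 4 and 30 at all 5. Mature members were 1 of 6 in N1 and 0 of 3, 2 and 5 in Ctrl, AN1 and AN2. They were 22.6% of members in the unnumbered UIR library, 25.0% in UIR replicate 1 and 19.0% in replicate 2. In UUO they were 22.5% in the unnumbered library, 30.4% in replicate 1 and 8.82% in replicate 2. Over libraries with at least 5 members the mean was 8.33% ± 11.8 in controls (n = 2), 22.2% ± 2.99 in UIR (n = 3) and 20.6% ± 10.9 in UUO (n = 3). With *Ccr7* left out and at least 1 of the other 4 markers required, the means were 25.0% ± 35.4, 35.0% ± 2.94 and 32.8% ± 6.41. The control values rest on 11 members of N1 and AN2.

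**Figure D2:**
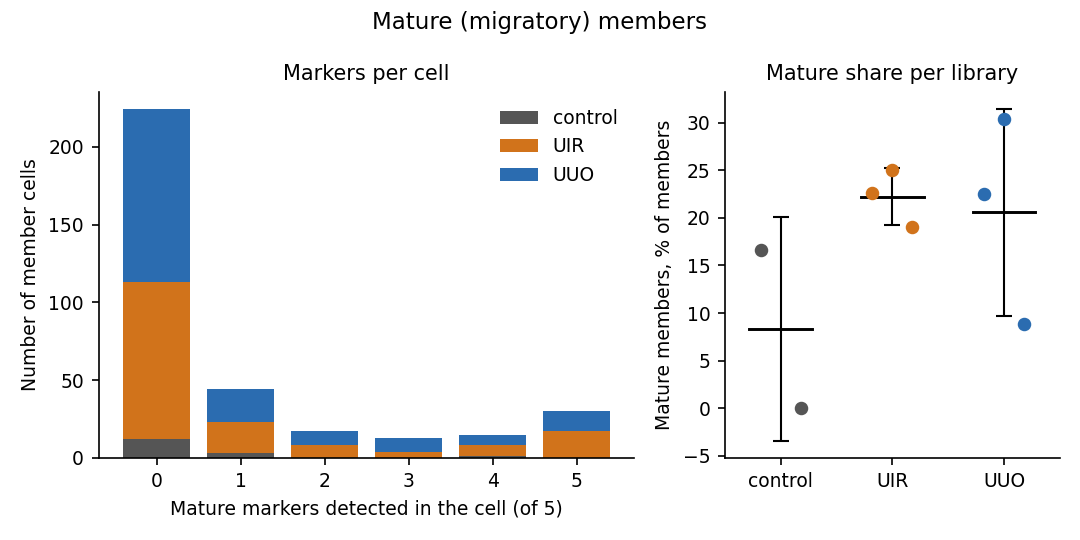
Number of mature markers detected per member, stacked by group (left), and mature members as a percentage of members in each library with at least 5 members (right; long lines are means, bars 1 SD, n = 2, 3 and 3). Of the 343 members 224 have none and 30 have all 5; the share of UUO replicate 2 (8.82%) lies below those of all 3 UIR libraries.

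Mature members differed from the others far beyond the 5 genes that defined them, which is given as a description since both pools come from the same cells. The pools also passed the rule by different terms, since members without *Ccr7* had to carry *Cd209a* or *Mgl2*, or both *Flt3* and *Itgax*. *Cd209a*, *Mgl2* or *Clec10a* was detected in 257 of the 268 other and 25 of the 75 mature members. Subset and maturity cannot be told apart in this contrast. Of 7 chemokines with at least 20 CPM in either pool outside the defining genes, 5 were higher in mature members, 4 of them above 2-fold, and 2 were below 0.5 of the level in the others. Among all 5993 genes with at least 20 CPM, 1965 were higher, 583 above 2-fold and 1176 below 0.5. *Ccl5*, which draws T cells and monocytes, reached 4297 CPM in the pooled mature members and 283 in the others. *Ccl17*, a ligand of Ccr4, reached 2341 against 320 CPM. *Cxcl16*, the ligand of Cxcr6, reached 835 against 102 CPM. The 2 that were lower were *Ccl6*, at 45.8 against 518 CPM, and *Ccl9*, at 158 against 424 CPM, both chosen for mention after their values were seen. Of the 5 libraries with at least 5 mature members, all 5 had higher *Ccl5* in mature (3008 to 7170 CPM) than in other members (135 to 676 CPM), with no overlap. *Il12b*, the p40 subunit of IL-12 and IL-23, was at 427 CPM in mature members and 3.83 in the others, and was detected in 24 of 75 and 1 of 268 cells.

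Costimulation genes lay on both sides. Of 14 genes of that list 8 were higher in mature members, all 8 above 2-fold, beside 583 above 2-fold of all 5993 genes. The 4 that were below 0.5 stood beside 1176 of the 5993. *Cd83* was at 477 against 39.3 CPM and *Cd40*, through which T cells license dendritic cells, at 161 against 24.4 CPM. *Cd86* was at 89.0 against 27.8 CPM. The inhibitory ligand *Cd274*, PD-L1, was at 67.4 against 6.71 CPM. On the other side *Vsir*, the checkpoint protein VISTA, was at 20.3 against 85.8 CPM, and *Cd200r1*, an inhibitory receptor, at 10.2 against 63.7 CPM. Of 31 mature and migratory genes with at least 20 CPM in either pool, the defining genes left out, 30 were above 2-fold, beside 583 of all 5993 genes at that level. *Nfkb1*, at 186 against 252 CPM, was the exception. The mature list shares *Cd80*, *Cd86*, *Cd40*, *Cd83*, *Cd274* and *Pdcd1lg2* with the costimulation list, and *Ccl5* and *Ccl17* with the chemokines. The counts of these lists are thus not independent.

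The other side of the split held pattern recognition and monocyte genes. None of 19 pattern recognition genes was higher in mature members, and 11 were at under 0.5 of the level in the others, beside 1965 higher and 1176 under 0.5 of all 5993 genes. The inhibitory Fc receptor *Fcgr2b* was at 15.3 against 236 CPM. All 10 monocyte genes were below 0.5 as well, among them *Lyz2*, lysozyme, at 118 against 2419 CPM, and *Ccr2*, the receptor by which monocytes leave the marrow, at 50.8 against 782 CPM. The MHC class I list was higher in mature members for 19 of 21 genes (median ratio 1.82, beside 0.816 over all genes), such as *B2m* at 2799 against 1593 CPM and the proteasome activator *Psme2* at 1157 against 269 CPM. Of 14 class II genes 5 were higher, 1 of them above 2-fold, and 3 were below 0.5, with a median ratio of 0.744. In that list *Ifi30*, a thiol reductase, was at 2222 against 1372 CPM, *H2-Aa* at 9541 against 9464 CPM, *H2-Ab1* at 6384 against 9299, and *H2-DMb1*, which helps to load peptides, at 163 against 836 CPM. *Fabp5*, a fatty acid carrier, *Epsti1*, an interferon-induced gene, and *Bcl2a1b*, a survival factor of the Bcl2 family, were also higher in mature members, at 2902 against 96.8, 1226 against 129 and 1478 against 252 CPM. Median UMIs were 11493 in mature and 6817 in other members, and a deeper cell more often shows a marker. With members thinned to 1000 UMIs, the mean share of mature members over libraries was 8.33% in controls, 15.4% in UIR and 15.7% in UUO, which lowers the differences from controls from 13.9 and 12.2 to 7.07 and 7.36 percentage points.

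**Figure D3:**
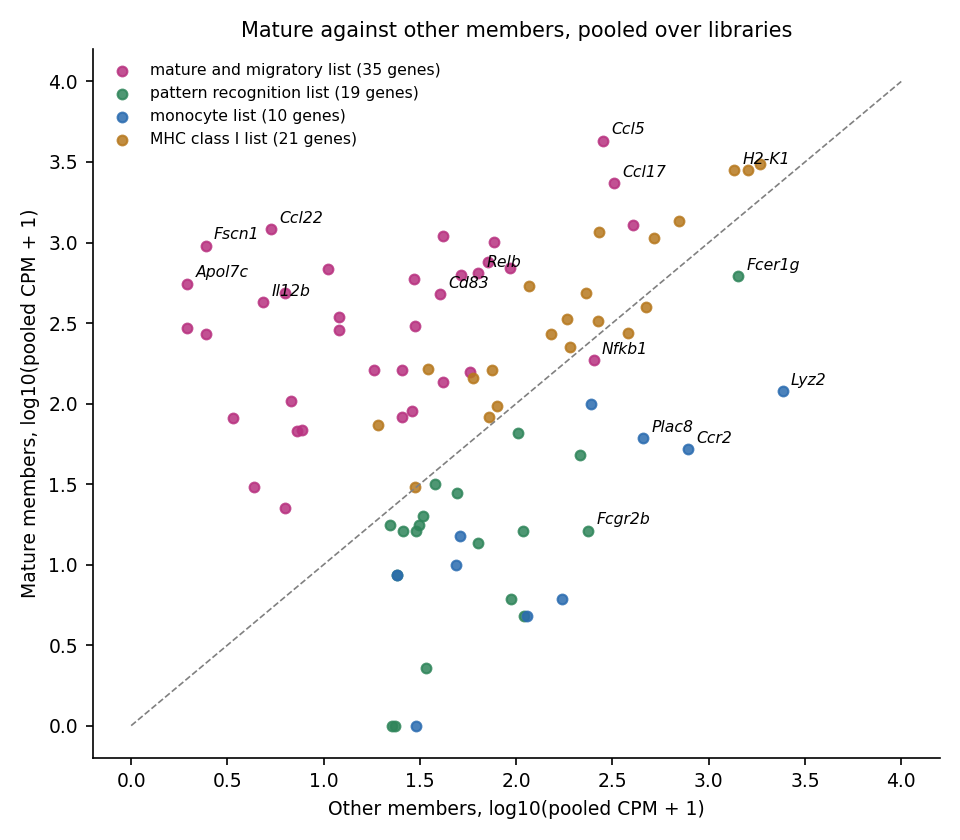
Level of each listed gene with at least 20 CPM in mature members (vertical, log10 of pooled CPM + 1) and in other members (horizontal, same scale); colors mark 4 gene lists and the dashed line equal levels. Of the mature list all but *Nfkb1* lie above the line, 19 of 21 MHC class I genes do, and all pattern recognition and monocyte genes lie below it. The mature list as plotted includes genes that defined mature members, such as *Fscn1* and *Ccl22*, which lie above the line by that choice.

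NF-kappaB is the family of transcription factors best known in dendritic cell maturation, and *Relb* (642 against 62.3 CPM) and *Nfkb2* (136 against 40.7 CPM) encode its non-canonical pair. Its consensus motif was searched on both strands in RefSeq promoters of GRCm38.p6, from 250 bases before to 50 bases after each start. Of 25 mature genes with a promoter sequence 2 held a match (8.0%), and of 27025 genes in all 5.14% did. Among the mature genes without a promoter sequence, which were not searched, were *Relb* and *Nfkb1*. The promoters of the 2 with a match are shown, since these are the searched mature genes that hold the motif. Matches are in capitals and the sequence runs 5′ to 3′ on the plus strand. *Nfkb2* has 3 annotated starts, each with a match, and the one with the most matches is printed, 2 of its 3 overlapping in the first run of capitals. That promoter lies at chr19:46304487-46304786 and that of *Pdcd1lg2*, PD-L2, at chr19:29410669-29410968. A match is no evidence of binding.
Nfkb2: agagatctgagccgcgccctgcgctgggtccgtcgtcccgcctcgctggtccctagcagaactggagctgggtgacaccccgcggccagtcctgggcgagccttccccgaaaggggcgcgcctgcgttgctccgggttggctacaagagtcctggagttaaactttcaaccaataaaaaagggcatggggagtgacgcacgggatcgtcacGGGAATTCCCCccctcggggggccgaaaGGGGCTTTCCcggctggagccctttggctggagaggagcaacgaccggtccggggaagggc
Pdcd1lg2: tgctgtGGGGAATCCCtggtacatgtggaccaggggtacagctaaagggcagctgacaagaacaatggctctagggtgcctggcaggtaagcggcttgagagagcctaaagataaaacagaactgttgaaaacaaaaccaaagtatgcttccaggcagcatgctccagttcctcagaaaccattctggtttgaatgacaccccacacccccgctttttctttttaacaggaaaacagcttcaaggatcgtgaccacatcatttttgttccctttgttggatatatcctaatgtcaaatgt

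Gene levels were compared between conditions with the UMIs of the members summed per library, in the 8 libraries with at least 5 members (N1 and AN2, 3 UIR and 3 UUO), by edgeR's quasi-likelihood test across 5669 genes with Benjamini-Hochberg adjustment. The control pools held 6 and 5 cells with 73012 UMIs in all, against 1283587 in UIR and 1448434 in UUO. Fewer cells of a state and less RNA per cell cannot be told apart in such sums. UIR against controls gave 1 gene higher and 1 lower at an adjusted p under 0.05 (0.0353% of genes tested, 0.0176% in each direction). UUO against controls gave 9 higher (0.159%) and 10 lower (0.176%), 0.335% in all, a split that was 6 and 13 with DESeq2's size factors. UUO against UIR gave 1 higher (0.0176%) and 16 lower (0.282%), 0.3% in all. Mitochondrial genes make up 8 of these 10 and 2 of these 16 lower genes; the rule capped their summed share, so that they are no finding, and 2 and 14 lower genes remain without them. Groups did not overlap in CPM for 36.2%, 38.1% and 13.2% of genes in these comparisons, and in UUO against UIR 8.93% lay apart on the higher and 4.3% on the lower side. At an unadjusted p under 0.05, 1.87% of genes were lower in UIR and 2.88% in UUO than in controls, and 2.33% were higher and 3.97% lower in UUO than in UIR.

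*Hpgd* fell in both models. It encodes 15-hydroxyprostaglandin dehydrogenase, the enzyme that inactivates prostaglandins such as PGE2, and lies at chr8:56294585-56321043 in GRCm38, on the plus strand. Its level was 493 CPM in N1 and 987 in AN2, and 232 and 437 CPM in Ctrl and AN1, which had too few members for the fit. It was 16.5, 3.6 and 14.2 CPM in UIR (unnumbered, 1 and 2) and 23.1, 7.59 and 41.4 CPM in UUO. All controls with members lay above all injured libraries. The log2 change was -5.93 ± 0.56 (SE) in UIR (adjusted p = 0.000227) and -4.85 ± 0.51 in UUO (adjusted p = 0.00073). At least 1 UMI was found in 11 of 16 control members, 9 of 157 in UIR and 17 of 170 in UUO, where PT barcodes showed one in 2.26%, 4.19% and 7.01%. C1q macrophages also express *Hpgd*, at 328 to 607 CPM in controls and 171 to 253 CPM in injured libraries. *Apoe*, which those macrophages hold at 6197 to 9709 CPM in controls, was at 0 in the member pools of N1, AN1 and AN2 and at 2712 CPM in Ctrl, all of it in 1 cell. The call of *Hpgd* was kept in 17 of 18 alternatives in each model. Without AN2 it was lost (adjusted p = 0.102 in UIR and 0.184 in UUO), with log2 changes of -5.34 and -4.27.

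*Bcl2a1b* rose in both models (chr9:89199209-89207827, plus strand). It was at 24.6 CPM in N1 and 0 in AN2, and at 139 and 0 CPM in Ctrl and AN1 outside the fit, at 780, 752 and 498 CPM in UIR and at 515, 825 and 370 CPM in UUO. The log2 change was 5.76 ± 0.84 in UIR (adjusted p = 0.02) and 5.42 ± 0.86 in UUO (adjusted p = 0.0184). With Ctrl and AN1 in the fit the log2 change was 3.96 and 3.62 (edgeR, adjusted p = 0.00081 and 0.00306). Voom called the gene in neither model, and its call in UIR was also lost without the unnumbered UUO library. Its close copies *Bcl2a1a* and *Bcl2a1d* share much of its sequence, so that its reads may be split among them and its own level is uncertain. *Bcl2a1d* was at 197 and 30.9 CPM in the same controls and at 305 to 592 CPM in injured libraries (adjusted p = 0.317 and 0.248).

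**Figure D4:**
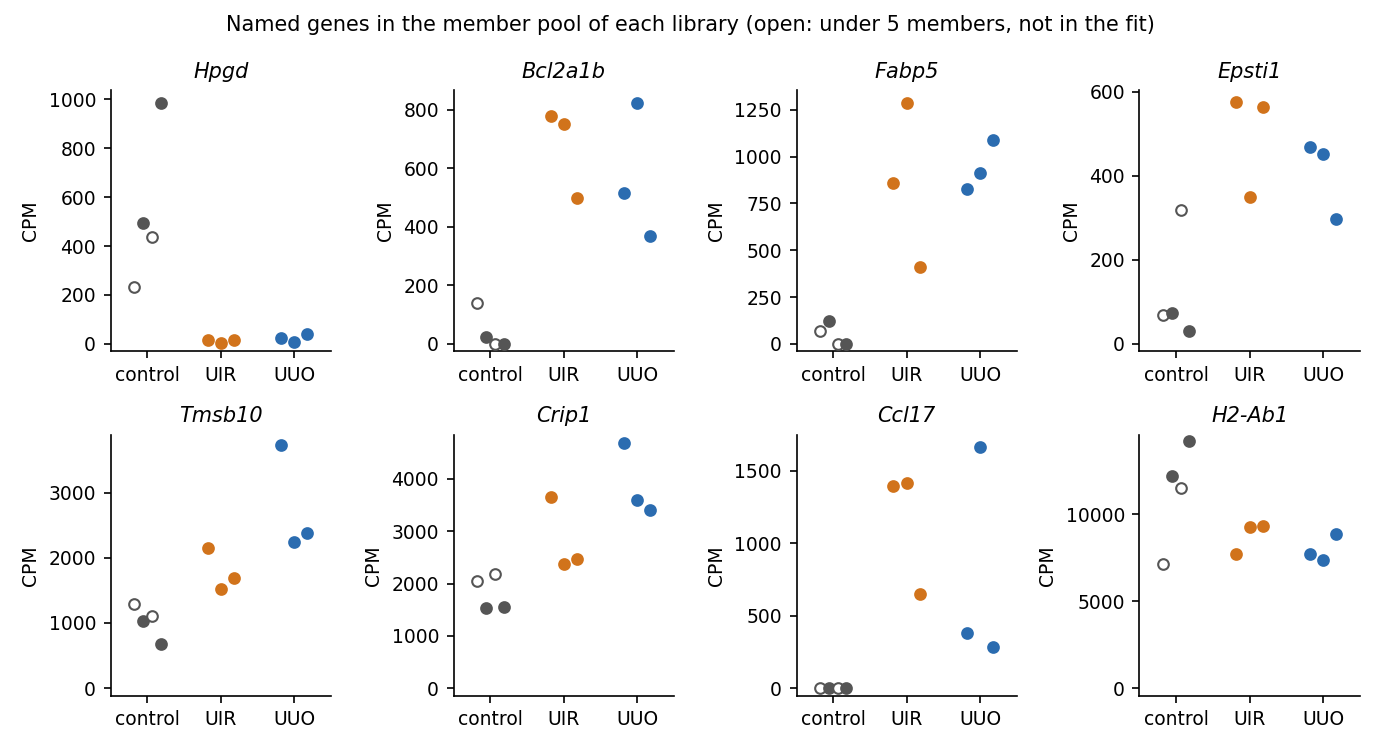
CPM of 8 named genes in the member pool of each library with members; each point is a library, and open points have under 5 members and were not in the fit. *Hpgd* is at 232 to 987 CPM in the controls and at most 41.4 CPM in the injured libraries, and *Ccl17* is at 0 in all 4 controls.

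In UUO 8 further genes of the nucleus rose against controls. *Fabp5* was at 123 CPM in N1 and 0 in AN2, against 825, 914 and 1088 CPM in UUO (log2 change 3.84 ± 0.72, adjusted p = 0.0389). In UIR it was at 859, 1289 and 411 CPM (log2 change 3.82 ± 0.72, adjusted p = 0.116). *Epsti1* was at 73.9 and 30.9 CPM in N1 and AN2 and at 469, 453 and 298 CPM in UUO (2.96 ± 0.58, adjusted p = 0.0465). AN1, outside the fit, had 318 CPM, above UUO replicate 2, and with all 4 controls the log2 change was 2.01 (edgeR, adjusted p = 0.0209). *Tmsb10* and *Cfl1*, which bind actin monomers and cut filaments, averaged 857 ± 251 and 416 ± 66.1 CPM in controls (n = 2) and 2792 ± 824 and 1020 ± 95.9 in UUO (n = 3; adjusted p = 0.0352 for each). *Crip1*, a small LIM protein, *S100a6*, a calcium-binding protein, and *Eif2s2*, a subunit of a translation initiation factor, had log2 changes of 1.42 ± 0.26, 1.14 ± 0.22 and 2.68 ± 0.53. The calls of *S100a6* and *Eif2s2* rested on N1 and AN2. *S100a6* was at 2735 CPM in Ctrl, above the 1858 to 2229 of UUO, and *Eif2s2* at 232 CPM in Ctrl and 159 in AN1, beside 218 to 284 in UUO. With Ctrl and AN1 in the fit their log2 changes were 0.54 and 1.16 (edgeR, adjusted p = 0.48 and 0.2), and that of *Cfl1* was 0.98 (adjusted p = 0.052). *Apoe*, the lipid carrier, was at 0 in N1 and AN2 and at 392, 367 and 571 CPM in UUO, at least 10.8-fold higher (adjusted p = 0.0184), but Ctrl had 2712 CPM, and with it in the fit the log2 change was -0.69 (adjusted p = 0.781). *Fabp5*, *Epsti1*, *Bcl2a1b* and *Crip1* were also higher in mature members. *Crip1* was at 2762 to 7045 CPM in the mature and 1961 to 3840 CPM in the other members of the injured libraries, higher in the mature in all 6, where *Tmsb10* and *S100a6* were lower in all 6. Among members with under 2 mature markers the log2 change of *Crip1* in UUO was 1.22 (edgeR, adjusted p = 0.0459). In the same members *Fabp5* and *Epsti1* in UUO gave adjusted p = 0.64 and 0.437 by edgeR. *Bcl2a1b* missed the threshold there (adjusted p = 0.0999 in UIR and 0.07 in UUO), at 0 CPM in N1 and AN2, 213 to 393 CPM in UIR and 139 to 268 CPM in UUO. The part of maturity in these differences was not tested. Leaving out N1 or AN2 left a single control in the fit, which was assumed to vary like the other groups. Without AN2 none of these genes was called, and without N1 *Hpgd* alone of these was, in both models (adjusted p = 0.00895 in UIR and 0.0246 in UUO, edgeR). By voom with quality weights *Hpgd* and *Cfl1* were called in UUO and the other 8 were not.

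The gene lists showed few calls. Of 32 mature and migratory genes, edgeR called none in either model, with 13 higher in UIR and 8 in UUO at an unadjusted p under 0.05, beside 8.68% and 9.0% of all genes; DESeq2 called *Ccl17* in both and voom none. *Ccl17* was at 0 in all controls, at 1396, 1417 and 647 CPM in UIR (at least 28.1-fold higher) and at 382, 1666 and 282 CPM in UUO (at least 18.9-fold higher; adjusted p = 0.136 and 0.118). The list's median log2 change was 1.77 in UIR and 1.69 in UUO, or 1.39 and 1.26 with genes absent in controls at their bound of 3 counts, beside 0.33 and 0.33 over all genes (0.16 and 0.17 at the bound). CPM did not overlap with controls, on the higher side, for 21 and 17 of the 32 genes, beside 23.7% and 26.7% of all genes. Summed over the list's 35 genes, N1, with its 1 mature member, held 5369 CPM, above UUO replicate 2 at 5026.

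MHC class II genes, the main cargo of these cells, had no call by edgeR among 14 tested. At an unadjusted p under 0.05, 1 was higher and 3 lower in UIR, and 1 higher and 4 lower in UUO. Over all genes 8.68% were higher and 1.87% lower at that level in UIR, and 9.0% and 2.88% in UUO. These shares stand beside the counts of each list below. *H2-Ab1* was at 12190 and 14225 CPM in N1 and AN2, 7732 to 9331 in UIR and 7345 to 8846 in UUO. Its log2 change was -0.43 ± 0.14 and -0.66 ± 0.14 (adjusted p = 0.337 and 0.0588), and voom called it in UUO and DESeq2 in both. Ctrl, outside the fit, had 7116 CPM. *Ifi30* was at 1059 and 525 CPM in N1 and AN2 and at 1452 to 1732 in injured libraries (adjusted p = 0.242 and 0.112). DESeq2 called *Ifi30* higher and *H2-Eb1* lower in both models. None of 21 MHC class I genes was called by edgeR, with 9 and 10 higher at an unadjusted p under 0.05. Their median log2 changes were 0.78 and 0.81, beside 0.33 and 0.33 over all genes. DESeq2 called 2 in UIR and 1 in UUO. In the list of 20 cDC2 identity genes none was called by edgeR; 4 were higher and 2 lower at an unadjusted p under 0.05 in UIR, and 4 and 1 in UUO. *Clec10a* was at 640 and 771 CPM in N1 and AN2, 556 and 238 CPM in Ctrl and AN1, of which AN1 lies within both injured ranges, 148 to 295 in UIR and 167 to 330 in UUO (-1.46 ± 0.36 and -1.30 ± 0.35, adjusted p = 0.242 and 0.184), and DESeq2 called it lower in both. Of 41 interferon genes none was called by edgeR. At an unadjusted p under 0.05, 4 were higher in each model, beside 8.68% and 9.0% of all genes. DESeq2 called *Ifitm2* in UUO. Of 24 lipid and scar-associated genes 3 were called higher in UUO (*Fabp5*, *Apoe*, *S100a6*), of which *Apoe* and *S100a6* were not called with Ctrl and AN1 in the fit, and none was called in UIR, where 10 were higher at an unadjusted p under 0.05 and DESeq2 called 2. Pattern recognition (15 genes) had no edgeR call, with 1 higher in UIR and 1 higher and 2 lower in UUO at an unadjusted p under 0.05, and DESeq2 called *Clec4b1* and *Fcgr2b* lower in UUO. Of 7 chemokine genes 3 and 2 were higher at that level, and DESeq2 called *Ccl17*. In the lists of costimulation (13 genes), cytokines (9) and receptors (27), edgeR, DESeq2 and voom called none against controls; at an unadjusted p under 0.05 edgeR gave 3 costimulation genes higher, 2 cytokines lower and 1 receptor higher in UIR, and 1 higher, 2 lower, and 2 higher with 1 lower in UUO.

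Of the 17 genes called between UUO and UIR, 6 were PT genes of the 12 tested, all lower in UUO. Among them was *Kap*, the androgen-regulated kidney protein, at 10652, 867 and 116 CPM in UIR and 39.1, 32.9 and 11 in UUO (-7.18 ± 1.37, adjusted p = 0.0408). The phosphate transporter *Slc34a1* was at 319, 131 and 35.4 CPM in UIR and at 5.79, 2.53 and 0 in UUO (-5.50 ± 0.86, adjusted p = 0.0146). The count of PT genes covers the list alone. Outside it *Tmem27* (log2 change -6.08), *Acsm2* (-5.89), *Akr1c21* (-5.88), *Spink1* (-5.62) and *Mgp* (-4.75) were also called lower in UUO. Each of these calls was lost without N1 or AN2. Summed over 16 PT genes, empty droplets of 10 to 100 UMIs held 4208 to 14469 CPM in UIR and 2758 to 6094 in UUO, and members 486 to 12907 and 91.2 to 145. *Gpx3*, a secreted peroxidase of the PT, fell in UUO against UIR (-4.29 ± 0.50, adjusted p = 0.00225) and against controls (-3.85 ± 0.69, adjusted p = 0.0352). The first call was kept without N1 or AN2 (edgeR, adjusted p = 0.0182 and 0.0139), and the second was lost (0.105 and 0.502). The part of free RNA in these differences was not tested. Without N1 or AN2 the calls of *Kap* (adjusted p = 0.127 and 0.106, edgeR) and *Slc34a1* (0.0703 and 0.0612) were lost, and voom called no gene in this comparison, with 466 at an unadjusted p under 0.05. The 13 mitochondrial genes, whose share the rule capped, had log2 changes of -2.24 to -0.64 in UUO against controls and -1.39 to -0.52 against UIR, given with no test. The median mitochondrial share of members was 9.10% in controls, 6.33% in UIR and 3.71% in UUO.

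*S100a8*, a neutrophil protein, rose from 0 in the 3 UIR libraries to 114, 235 and 478 CPM in UUO, at least 118-fold (adjusted p = 0.00225). Its UMIs came from 10 cells, 5, 1 and 4 in the 3 libraries, and empty droplets held it at 30.8, 442 and 755 CPM in UIR, of which the last 2 lie above the 51.2 to 248 CPM of UUO. The call was lost with predicted doublets left out (adjusted p = 0.0826), in members with no C1q gene (0.135) and by voom (0.149). *Ear2*, an eosinophil-associated ribonuclease with near-identical copies, was named after its values were seen. It was at 365, 230 and 505 CPM in UIR and 86.8, 116 and 60.7 in UUO (-2.12 ± 0.32, adjusted p = 0.0117), and at 24.6 and 0 CPM in N1 and AN2. Without N1 or AN2 the log2 change was -2.13 and -2.12, and the call was just lost (edgeR, adjusted p = 0.0577 and 0.0538). At least 1 UMI was found in 63 of 157 members in UIR, 30 of 170 in UUO and 1 of 16 in controls, against 2.85%, 1.74% and 0.324% of C1q macrophages.

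**Figure D5:**
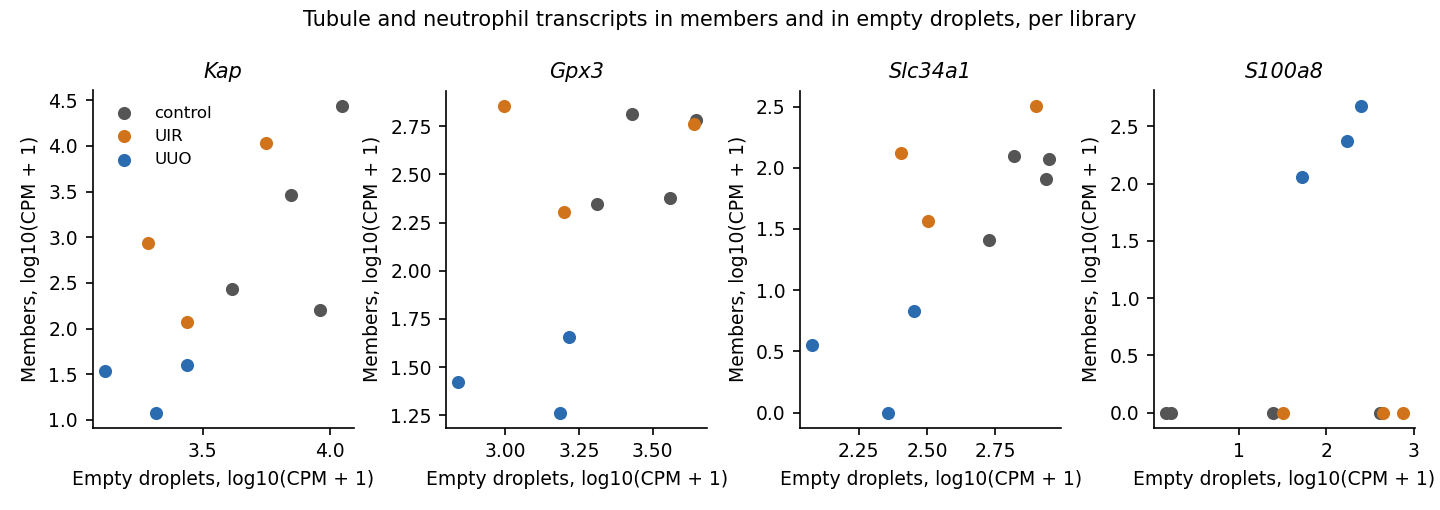
Level of 3 PT genes and *S100a8* in members (vertical) and in empty droplets (horizontal) of each library with members, both as log10(CPM + 1). The 3 UUO libraries are lowest in members for the PT genes, and *S100a8* is above 0 in UUO members only, although 2 UIR libraries hold more of it in empty droplets.

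Whether members changed otherwise than C1q macrophages of the same kidneys was tested as an interaction with the library as a block. In UIR against controls 3 genes differed (0.0385% of 7787 tested). *Hpgd* changed by -4.14 ± 0.62 more in members (adjusted p = 0.0336); macrophages changed by -1.5. *Bcl2a1b* changed by 5.35 ± 0.77 more (adjusted p = 0.0336), against 0.77 in macrophages. That size is uncertain too, with the members of N1 and AN2 below 41.1 CPM. *Cst3*, the protease inhibitor cystatin C, changed by 1.5 ± 0.19 more (adjusted p = 0.014), where macrophages changed by -0.75 (adjusted p = 0.0902) and members by 0.46 (adjusted p = 0.477). Mature members of UIR held *Cst3* at 15517 to 20461 CPM and the others at 3994 to 5484 CPM, below the 6590 and 6203 CPM of the members of N1 and AN2 that were not mature. The part of maturity in the differences of *Cst3* and *Bcl2a1b* from macrophages was not tested. In UUO against controls and UUO against UIR none differed (0.0%), with 789 and 358 genes at an unadjusted p under 0.05. Voom gave none in any comparison, so that the 3 calls in UIR were lost, with 582, 700 and 556 genes at that level.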

How the data were processed

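The 11 single-cell RNA-seq libraries of mouse kidney were used. The authors deposited unfiltered matrices of raw UMI counts per gene and barcode, with no normalization. The submitters' processing notes name Cell Ranger 3.1.0 and the mouse build mm10, and the study's methods name a later release, so that the release behind the files is uncertain. No column of other samples was present.

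Members were selected with the rule given above, and their counts were summed per library. edgeR 4.0.16 (quasi-likelihood, TMM, filterByExpr, Benjamini-Hochberg) was fitted over all libraries with at least 5 members. Counts of calls leave out the named genes of the rule, and mitochondrial genes, of which the rule capped the share, are given within them as a separate number. Shares of barcodes were compared over libraries by two-sided exact permutation tests. The planned test of the mature share is left out, since *Ccr7* belongs to the rule. Free RNA was read from barcodes of 10 to 100 UMIs, and doublets were predicted per library as the 7.5% of highest score and left out only in an alternative. The members and gene lists were chosen with earlier results of these data known. Named genes were those of the rule, list genes past an adjusted p of 0.05 with up to 4 others of highest CPM per list, and up to 10 called genes of largest change per direction with at least 50 CPM and no overlap. Intervals and the floor of 3 counts cover counting error only. Promoters came from RefSeq, GRCm38.p6.

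Tests were checked on simulated data with 200 of 5669 genes changed, drawn from those with at least 50 CPM. The simulation used the fitted trend of the spread in place of each gene's own, and 1 mean for all groups before the change. Recovery of genes at lower levels or of larger spread was not tested. False calls numbered 5 to 10 per run. At a log2 change of 2 in size, 115 (UIR against controls), 96 (UUO against controls) and 199 (UUO against UIR) were recovered, and at 4, 199, 198 and 200. Alternatives were DESeq2 1.42.0, its size factors, limma 3.58.1 (voom), other filters and pools, a replicate block and leaving out each library. Lists of other cells had no edgeR call against controls, except *Apoe* among macrophage and *Gpx3* among PT genes.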

Additional observations from a re-analysis of the deposited data

Results flagged for a closer look

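Among shares with at least 3 of the 5 markers, N1 stood apart from the other controls at 0.199% of quality barcodes (4 cells). Of 14 control groups examined in this way 1 stood apart, and chance marks about 1 in 20.

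The change from controls to UIR differed between members and C1q macrophages, by edgeR's test of the difference, for *Cst3* (1.5 on the log2 scale), *Hpgd* (-4.14) and *Bcl2a1b* (5.35). By voom none of the 3 was called. *Cst3* and *Bcl2a1b* were higher in mature than in other members.

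Barcodes that met every term but the bar on cDC1 genes, and were barred by *Naaa* and *Wdfy4* alone, averaged 0.0802% in controls, 0.66% in UIR and 1.03% in UUO (10, 122 and 157 cells). The exact permutation test gave p = 0.0357 for each model against controls, adjusted 0.0536, both the smallest values that these tests allow. Both genes are also found outside cDC1, and these barcodes were not used in the comparisons above.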

How the results depend on the processing

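Of the alternatives to shares and counts of calls, 89 values kept direction and side of the threshold, 21 lost the threshold, 49 counts moved by over 1.5 times and 5 reversed; the causes were not tested. The difference in share from controls, in percentage points, was 0.126 (UIR) and 0.13 (UUO) of *Ptprc* barcodes, 0.598 (UIR) outside the PT, and 0.656 and 0.754 with a mitochondrial limit of 15%. Per 100 C1q macrophages, chosen after seeing the data, it was -0.349 and -0.589, and -0.24 between models. Leaving out 1 library gave 0.558 to 0.729 (UIR), 0.734 to 1.14 (UUO) and 0.063 to 0.472 (UUO against UIR), where the smallest possible p rises. Between models it was 0.417 when thinned, 0.485 with a limit of 50% and 0.781 with *Naaa* and *Wdfy4* not barred. The mature share, given with no test, differed by 0.286 between models and by 7.07 and 7.36 from controls when thinned, and by -6.55 to 4.22 (5.54 to 22.2 and 3.89 to 20.6 against controls) without 1 library.

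Genes called in UIR, UUO and UUO against UIR were 36, 58 and 36 with DESeq2, 116, 178 and 224 with no filter, 30, 63 and 41 with at least 1 member per library, and 1, 5 and 0 with voom. Without predicted doublets 32 and 33 were called against controls. A 15% mitochondrial limit gave 31 (UUO) and 8 (UUO against UIR), members with under 2 mature markers 1 (UIR) and 29 (UUO against UIR), *Naaa* and *Wdfy4* not barred 43 (UUO), and at least 20 members 10 (UUO against UIR). Without 1 library the counts were 0 to 5, 0 to 37 and 2 to 78. Differences from macrophages numbered 0 to 4, 0 to 3 and 0 to 3 without 1 library, and 0 by voom in UIR. *Apoe* in UUO turned to -0.69 with at least 1 member per library.

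Deviations from the group mean correlated at r = 0.22, 0.0274 and 0.131 across 4611 genes between like-numbered UIR and UUO libraries. In pairs of unlike number r was -0.164 to 0.0503. Whether the numbers pair the libraries was not tested. The replicate block gave 40 calls between UIR and UUO, against 10 in the injured libraries alone without it. With 11 control members in the fit, changes near a log2 of 2 were often not recovered in simulation.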

Other observations

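*Hbb-bs*, a beta globin of red cells, was at 12007 CPM in the members of UUO replicate 1 and at 0 to 30.9 CPM in those of the other libraries. At least 1 UMI of the proliferation genes *Mki67* or *Top2a* was found in 43 members, 2 in controls, 18 in UIR and 23 in UUO. Both values were chosen after they were seen.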
